A study of Mus musculus with 12 samples.

Results

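The vomeronasal receptor genes of the mouse were followed in septal RNA from lactating and virgin females. They were taken as every gene whose symbol in the array's probe annotation starts with Vmn1r or Vmn2r, on transcript clusters that carry 1 symbol, and for a gene with several such clusters the brightest was used. A transcript cluster is a set of probes read together as 1 transcribed region. The rule gave 167 genes, 118 of Vmn1r and 49 of Vmn2r, among 19938 genes with 1 symbol and 35556 transcript clusters. Of the 167 genes, 4 are annotated as pseudogenes and 8 have several clusters. A further 66 clusters list a vomeronasal receptor together with other symbols and were left out, because their signal cannot be assigned to 1 gene.

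Vomeronasal receptors are G protein-coupled receptors of the sensory neurons of the vomeronasal organ, an epithelium in the nasal cavity that detects pheromones and other chemical cues. Vmn1r receptors pair with the G protein subunit encoded by Gnai2 and mostly bind small molecules such as steroids, while Vmn2r receptors have a long extracellular domain, pair with the subunit encoded by Gnao1 and bind peptides and proteins. Both classes signal through phospholipase C and the cation channel Trpc2, and each neuron expresses very few of the receptors. The septum is a forebrain region of mostly GABAergic projection neurons, and it receives indirect input from the vomeronasal pathway but does not contain its sensory neurons.

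The study compared gene expression between lactating and virgin females. The animals were 6 lactating mice, which had been housed with a breeder male and were sampled on postpartum days 6 to 8, and 6 age-matched virgin mice, which had been housed with other females. All 12 mice came from 1 line selectively bred for high maternal aggression from outbred hsd:ICR mice, all were housed singly before sampling, and each gave 1 Affymetrix Mouse Gene 1.0 ST array without pooling. The labels name the tissue as septum and the deposited protocol names its lateral part. The paper describes the whole septum, with lateral and medial parts. Per the paper, the virgins were in estrus or diestrus and not in proestrus, and the labels do not give the stage of each. The deposited PLIER intensities are linear, with a median per array of 320 to 339, and any 2 arrays correlated at 0.987 to 0.994 on the log2 scale. Most markers of the labelled tissue were bright. Of the 14 septal and general neuron markers, 13 had mean intensities above the median cluster of 331. Chat, the enzyme of acetylcholine synthesis, lay just below it at 328. The highest was Snap25, a synaptic vesicle fusion protein, at 13019, and Zic1 and Gad1, of septal and GABAergic neurons, had mean intensities of 4613 and 6566.

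The vomeronasal receptor genes gave some of the lowest signal on the arrays. Their mean intensity over 12 arrays had a median of 71.2, against 331 for all clusters, and 165 of the 167 lay below the median cluster. The range was 5.19 to 500.4. When all clusters were ordered by intensity and divided into 10 equal deciles, 85 of the 167 genes were in the dimmest decile and 155 in the dimmest 3 deciles. The median was 70.2 for Vmn1r and 80.1 for Vmn2r, so both classes were dim. Intensity depends on the probes as well as on the RNA, so the order of genes by intensity is not an order of transcript levels, and the table has no detection call.

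Genes that are absent from female mice or belong to other organs were measured beside the receptors. Of the Y-linked genes, which female mice do not carry, 8 were on single-symbol clusters, and they had a median intensity of 88.9 with a range of 44.6 to 1016. The highest of them was Sry, the testis-determining gene, which is named here after its value was seen. The 42 measured genes of other organs, such as protamines of the testis and digestive enzymes of the pancreas, had a median of 163, and the 1027 odorant receptor genes (Olfr) had a median of 91.0. The median of the vomeronasal receptor genes thus lay below that of the Y-linked genes, and 2 of the 167 receptor genes lay above 331. No detection of any single receptor can be read from an intensity in this range.

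**Figure D1:**
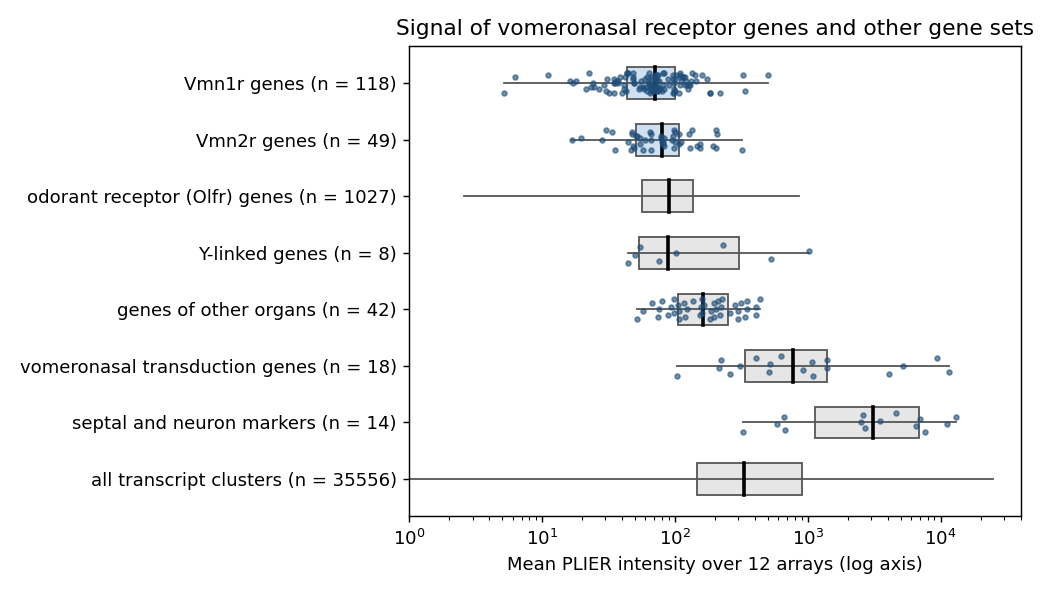
Mean PLIER intensity over 12 arrays on a log axis for each gene set, as points for single genes (not drawn for Olfr genes and all clusters), boxes from the first to the third quartile with the median as a thick bar, and lines over the whole range, drawn from 1 upward. The Vmn1r and Vmn2r medians of 70.2 and 80.1 lie beside those of Olfr genes (91.0) and Y-linked genes (88.9) and below that of septal and neuron markers (3094).

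The brightest receptors were examined one by one. Vmn1r86 had intensities of 432 at the lowest, 479 at the median and 537 at the highest in lactating mice, against 491, 514 and 546 in virgin mice. Its groups overlapped, and its log2 difference, lactating minus virgin, was -0.09 ± 0.05 (SE, exact permutation p = 0.110). Vmn1r195 and Vmn1r234 averaged 334 ± 20.6 and 318 ± 37.2 in lactating mice, against 341 ± 35.8 and 335 ± 33.6 in virgin mice (SD, n = 6 each). The brightest of Vmn2r were the pseudogene Vmn2r-ps104, at 306 ± 24.9 in lactating and 338 ± 32.9 in virgin mice, and Vmn2r24 and Vmn2r60, with means over all arrays of 207 and 203. No ligand is given here for any of these 6 genes, and none of them passed an unadjusted p of 0.05.

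The dimmest receptors lay close to the value of 16 that was added to each intensity before the log2 was taken. Vmn1r23 and Vmn1r22 averaged 5.87 and 4.86 in lactating mice, against 4.52 and 7.68 in virgin mice, and Vmn1r58 reached at most 19.1 in lactating and 18.6 in virgin mice. Vmn1r22 ranged between 0.270 and 7.68 in lactating mice, against 4.11 and 11.8 in virgin mice. The log2 differences of these 3 genes are compressed by the added value, and they were the 3 receptor genes whose mean lay below it. The dimmest of Vmn2r were Vmn2r99, Vmn2r79 and Vmn2r76, with means over all arrays of 16.7, 19.6 and 28.5.

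Receptors with a described ligand or a co-receptor role did not pass the test in either direction. Of 15 such genes listed, 7 were on single-symbol clusters. Vmn2r1, of the small group of Vmn2r genes that is broadly co-expressed with other Vmn2r receptors, had intensities of 102 at the lowest, 129 at the median and 147 at the highest in lactating mice, against 117, 127 and 162 in virgin mice. Vmn2r26, a receptor for peptides that bind major histocompatibility complex molecules, had intensities of 138, 160 and 174 in lactating mice, against 135, 148 and 168 in virgin mice. Both genes had overlapping groups, with log2 differences of -0.07 (95% interval -0.25 to 0.12) for Vmn2r1 and 0.07 (-0.06 to 0.19) for Vmn2r26.

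Among the other ligand-described receptors, Vmn1r85 and Vmn1r89, which respond to sulfated steroids, averaged 61.9 ± 7.48 and 119 ± 13.1 in lactating mice, against 66.8 ± 6.79 and 124 ± 15.8 in virgin mice. Vmn1r49, which responds to the urinary ketone heptanone, averaged 41.9 ± 8.07 in lactating and 45.5 ± 6.20 in virgin mice. Vmn2r65, described as responding to cues of pups, had intensities of 43.7, 54.5 and 62.9 (lowest, median and highest) in lactating mice, against 50.2, 56.5 and 61.2 in virgin mice, a log2 difference of -0.05 (95% interval -0.20 to 0.11). Vmn2r115, a receptor of the exocrine gland peptide family, averaged 99.2 ± 8.51 in lactating and 101 ± 12.8 in virgin mice. The exact permutation p-values of these 7 genes were between 0.260 and 0.786. The interval of Vmn2r26 excluded the family median of -0.07, and that of Vmn2r1 included it. This cannot show that Vmn2r26 departs from the family, because the median comes from the same arrays and shares their variation. Vmn2r26 was also the only gene of these 7 with a positive difference. No test of a gene against the family was run.

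Lower signal in lactating mice was the common direction among the 167 single-symbol receptor genes, and it was small. The median log2 difference over the 167 genes was -0.07, against -0.0093 over all clusters, and 140 of the 167 (83.8%) lay below 0, against 54.4% of all clusters. At an unadjusted p under 0.05 in limma, 0 of the 167 were higher and 13 were lower in lactating mice. That is 7.78% of the receptor genes lower, beside 4.69% of all clusters lower and 3.26% higher. By the exact permutation test, 0 were higher and 11 lower, beside 4.13% of all clusters lower and 3.98% higher. None reached an unadjusted p under 0.0025, which 0.337% of all clusters did, and the smallest adjusted p of any receptor gene in limma was 0.619. In these bulk samples, fewer cells of a type, less RNA per cell and a shift shared by dim signal cannot be told apart. None of these was tested. The Y-linked genes, which female mice do not carry, had a median log2 difference of -0.08, with all 8 below 0. The 66 left-out clusters, which list a vomeronasal receptor with other symbols, had a median log2 difference of -0.011, with 59.1% below 0. Of these clusters, 5 (7.58%) were called lower and 2 (3.03%) higher by the same limma threshold. Their mean log2 value was 0.0065 higher in lactating mice, and 0 lactating mice lay below every virgin. The shift in the median was thus seen in the 167 genes and hardly in these clusters. The difference between them was not tested.

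Lower calls outnumbered higher ones under each scaling computed over all clusters, and their number varied. The split was 0 higher and 13 lower on the values as deposited, 0 and 8 after quantile normalization, 0 and 10 after subtraction of each array's median, and 1 and 5 after cyclic loess. When each array was centred on its mean over the Olfr genes, a scaling chosen after seeing the data that subtracts 1 constant per array from every cluster, 6 receptor genes were higher and 0 lower, and the median log2 difference was -0.0020 for the receptor genes and 0.06 for all clusters. The share of all clusters called was counted only for the values as deposited, so the other counts have no such share beside them.

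Other dim gene sets were lower in lactating mice by about as much. The Olfr genes had a median log2 difference of -0.07 with 82.4% below 0, and at the same unadjusted threshold 4 of them (0.389%) passed as higher and 116 (11.3%) as lower, beside 7.78% of receptor genes and 4.69% of all clusters lower. The 8 Y-linked genes had a median of -0.08, with all 8 below 0 and 0 past the test in either direction. The genes of other organs had a median of -0.07, with 0 higher and 3 lower (7.14%), while the septal and neuron markers had a median of 0.01 with 0 called. The Y-linked and Olfr medians stayed below 0 after quantile normalization, after subtraction of each array's median and after cyclic loess.

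Other genes of like intensity were set beside the receptor genes by decile. In the dimmest decile of clusters, the median log2 difference was -0.06 for 85 receptor genes and -0.05 for 985 other genes. In decile 2 it was -0.08 for 54 receptor genes and -0.07 for 1638 other genes, and in decile 3 it was -0.07 for 16 receptor genes and -0.06 for 1790 other genes. The share called lower was 5.88% of receptor genes and 7.82% of other genes in the dimmest decile, 9.26% and 9.16% in decile 2, 12.5% and 9.44% in decile 3, and 12.5% and 9.01% in decile 4, where 8 receptor genes lie. The receptor median lay below that of the other genes in each decile that holds receptors, and this difference was not tested. In decile 3 the 2 medians were -0.0663 and -0.0631, and deciles 5, 6 and 7 hold only 2, 1 and 1 receptor genes. Over all clusters of the dimmest decile, 5.37% were called lower and 2.22% higher. Shares this near those of other dim genes are no result about the receptors. From decile 7 up, the median of the other genes lay above 0.

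**Figure D2:**
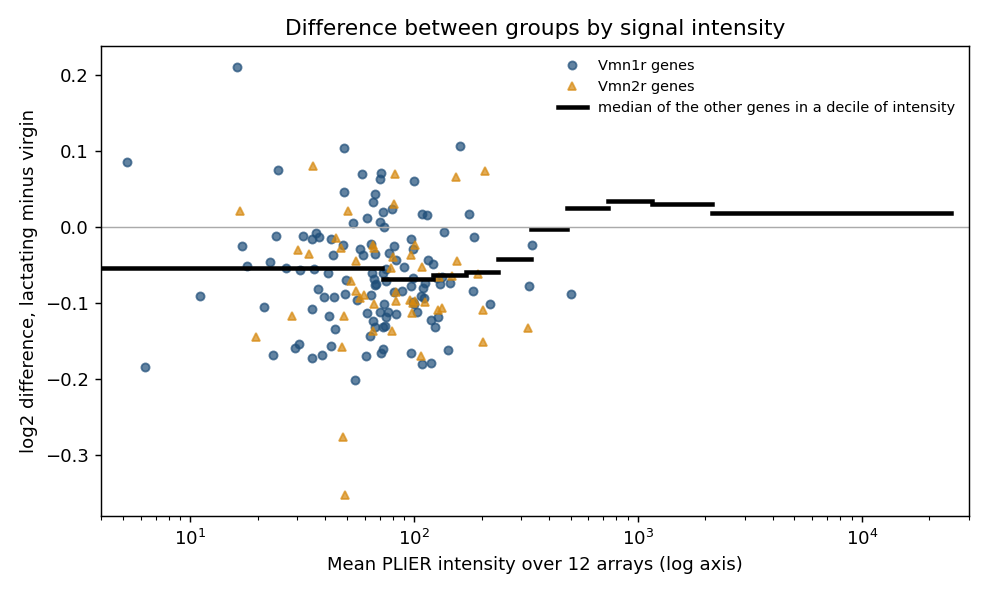
Log2 difference, lactating minus virgin, against mean PLIER intensity over 12 arrays (log axis) for 118 Vmn1r and 49 Vmn2r genes, with horizontal bars for the median of the other genes with 1 symbol in each decile of cluster intensity. The receptor genes scatter around the bars of the dimmest 3 deciles, at -0.05, -0.07 and -0.06, and the bars of the brightest 4 deciles lie above 0.

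Within the family, the difference changed little with intensity. When the 167 genes were divided into 4 groups by intensity, the median log2 difference was -0.06 in the dimmest group and -0.07, -0.07 and -0.08 in the next 3. The difference in linear intensity units was -1.71, -3.63, -5.21 and -7.53 in the same order, and as a percentage of the virgin mean the group medians were between -5.38% and -6.01%. The median log2 difference was -0.07 for Vmn1r and -0.08 for Vmn2r. Of the 118 Vmn1r genes 6 were called lower, which were Vmn1r24, Vmn1r66, Vmn1r78, Vmn1r81, Vmn1r194 and Vmn1r232. Of the 49 Vmn2r genes 7 were called lower, which were Vmn2r16, Vmn2r77, Vmn2r94, Vmn2r96, Vmn2r112, Vmn2r118 and Vmn2r-ps54. These counts are 5.08% of the Vmn1r and 14.3% of the Vmn2r genes. Beside them, 4.69% of all clusters and 9.16% of other genes in decile 2 were called lower. The difference between the classes was not tested.

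The per-array values show which mice carried the shift. The mean log2 value of the 167 genes, as a deviation from its mean over 12 arrays, was -0.14 at the lowest, 0.03 at the highest and -0.03 ± 0.07 on average in lactating mice, against -0.06, 0.13 and 0.03 ± 0.07 in virgin mice (SD, n = 6 each). The groups overlapped, and 2 of 6 lactating mice lay below every virgin. Lactating mouse 3 was the lowest array of all 12 for 56 of the 167 genes and lactating mouse 6 for 27, whereas virgin mouse 2 was the highest for 54 and virgin mouse 6 for 24.

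The same arrays stood low and high in the other dim sets. Lactating mouse 3 deviated by -0.14 for the receptor genes, -0.15 for the Olfr genes and -0.14 for the genes of other organs, and virgin mouse 2 by 0.13, 0.13 and 0.14. Virgin mouse 6 deviated by 0.09 for the receptor genes, 0.09 for the Olfr genes and 0.20 for the genes of other organs, where it was the highest array. In that mouse the keratin genes Krt5 and Krt14, named after their values were seen, had intensities of 1960 and 1131, against at most 311 and 167 in any other mouse, and without them its deviation for the other 40 genes was 0.08. Without virgin mouse 6, 0 receptor genes were higher and 10 lower, with a median log2 difference of -0.06. For the Y-linked genes the lowest array was lactating mouse 4, at -0.13, and the highest virgin mouse 2, at 0.14. The mean log2 value of the receptor genes minus that of the Olfr genes was -0.28 ± 0.014 in lactating mice, with a range of -0.31 to -0.27, and -0.28 ± 0.013 in virgin mice, with a range of -0.30 to -0.26 (SD, n = 6 each). The receptor genes thus kept nearly the same distance from the Olfr genes on every array. Without lactating mouse 6 the count of lower receptor genes was 6, and without virgin mouse 3 it was 22. For counts with an array left out, the share of all clusters called was not counted, so they are no result about the receptors.

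**Figure D3:**
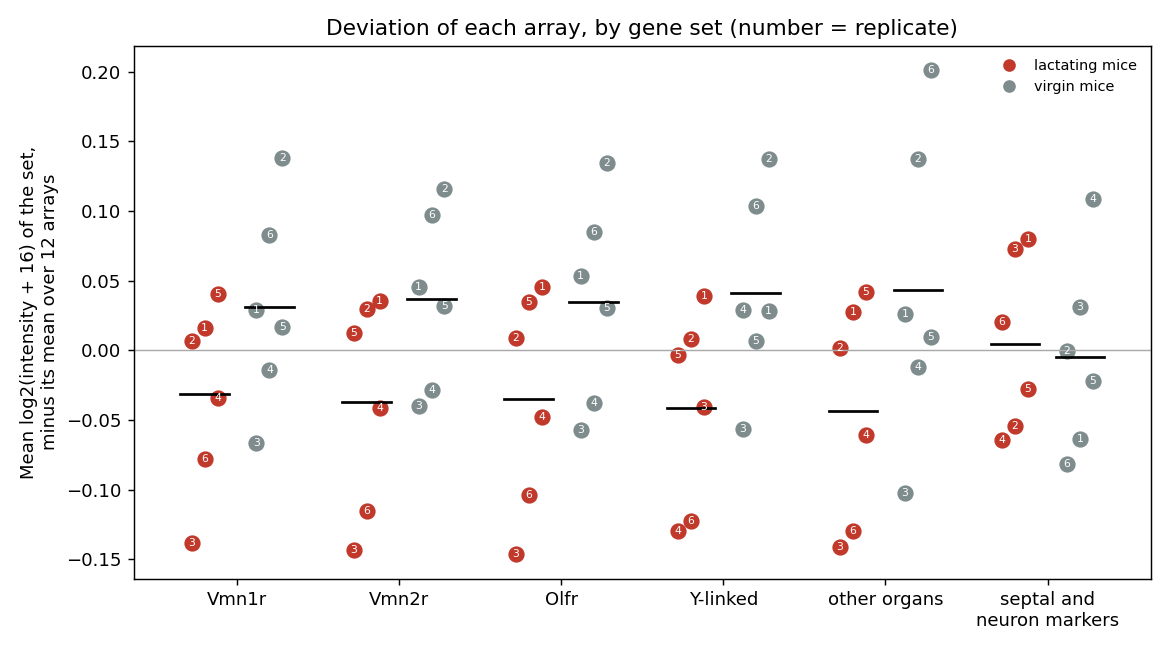
Mean log2(intensity + 16) of each gene set on each array, minus the mean of the set over 12 arrays, for 6 lactating mice (red, left) and 6 virgin mice (grey, right) of each set, with the replicate number in each point and the group mean as a bar. Lactating 3 and 6 are low and virgin 2 and 6 high in the Vmn1r, Vmn2r and Olfr sets, and the 2 groups overlap in every set.

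Receptor genes varied together only in part. Over the 13861 pairs of receptor genes, the correlation of values within groups across the 12 arrays had a median of 0.24, and over the 146 pairs of neighbouring genes of 1 class it was 0.24 as well. These pairs share arrays and normalization, and the values are a description. By chromosome, 49 of the genes lie on 7, 46 on 6, 29 on 13 and 29 on 17. Of the 29 on chromosome 17, the 14 Vmn1r genes had a median log2 difference of -0.09 with 1 called lower, and the 15 Vmn2r genes had a median of -0.10 with 4 called lower (Vmn2r94, Vmn2r96, Vmn2r112 and Vmn2r118). These counts stand beside 4.69% of all clusters called lower and 9.16% of other genes in decile 2, and no test of a chromosome was run. The 5 Vmn2r genes on chromosome 6 had a median of 0.07, and Vmn2r24 and Vmn2r26 are among them.

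The lower receptor gene with the smallest p was a pseudogene. Vmn2r-ps54 had intensities of 87.4 at the lowest, 103 at the median and 108 at the highest in lactating mice, against 109, 113 and 122 in virgin mice. It was the 1 receptor gene for which every lactating mouse lay below every virgin mouse, which 0.186% of all clusters did, and none lay above, as 0.208% of clusters did. Its means were 99.7 ± 8.06 in lactating and 114 ± 4.34 in virgin mice (SD, n = 6 each), with a log2 difference of -0.17 ± 0.05 (SE, exact permutation p = 0.00216, the smallest this design allows). Its unadjusted p in limma was 0.00400 and its adjusted p 0.619. The array holds 2 clusters for Vmn2r-ps54 with identical values, and they were counted once.

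The next 4 lower genes were of both classes. Vmn1r24 had intensities of 41.9, 50.3 and 56.8 (lowest, median and highest) in lactating mice, against 53.9, 55.8 and 69.1 in virgin mice, with 5 of 6 lactating mice below every virgin and a log2 difference of -0.20 ± 0.07 (SE, exact permutation p = 0.0108). Vmn2r118 had intensities of 116, 124 and 129 in lactating mice, against 126, 133 and 141 in virgin mice, with 5 of 6 lactating mice below every virgin and a log2 difference of -0.11 ± 0.04 (exact permutation p = 0.00433). In both genes the highest lactating value was inside the virgin range.

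Vmn1r232 and Vmn2r112 overlapped more. Vmn1r232 had intensities of 33.7, 40.1 and 45.0 in lactating mice, against 40.1, 46.9 and 48.1 in virgin mice, with 3 of 6 lactating mice below every virgin and an exact permutation p of 0.0195. Vmn2r112 averaged 74.7 ± 5.69 in lactating and 83.7 ± 5.26 in virgin mice, with 3 of 6 below every virgin and an exact permutation p of 0.0216. No ligand is given here for these genes. In limma, Vmn1r24, Vmn1r232 and Vmn2r112 no longer passed 0.05 on linear intensities (unadjusted p = 0.0641, 0.147 and 0.0752), and Vmn2r118 no longer passed after quantile normalization (0.0731). After cyclic loess, Vmn2r118 (0.127) and Vmn2r112 (0.0688) no longer passed, and with a variance trend and robust estimation Vmn2r118 (0.05005), Vmn1r232 (0.0650) and Vmn2r112 (0.0541) did not. With arrays centred on the Olfr genes, none of the 5 passed, with unadjusted p between 0.0565 for Vmn2r-ps54 and 0.421 for Vmn2r118.

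**Figure D4:**
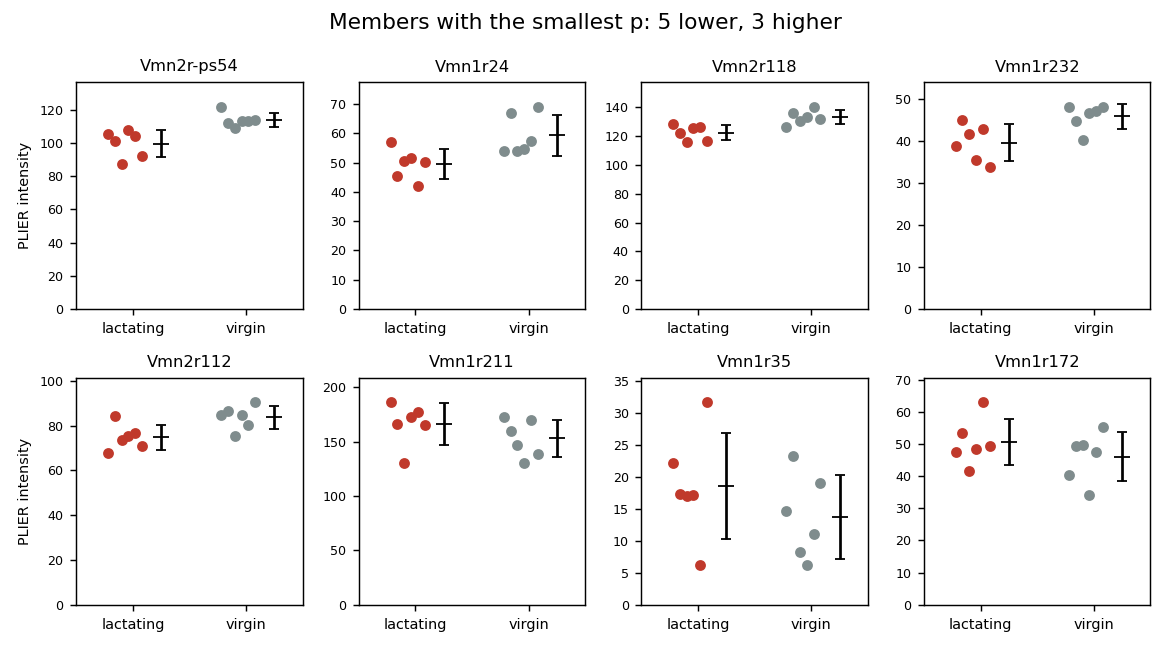
PLIER intensity per mouse, with an axis from 0, in lactating (red, left) and virgin (grey, right) mice for the 5 lower receptor genes with the smallest p and 3 of the 5 higher ones, with the mean and SD of 6 mice in black. For Vmn2r-ps54 every lactating point lies below every virgin point, and for the other 7 genes the groups overlap.

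The largest negative difference belonged to a gene that did not pass the test. Vmn2r74, named after its value was seen, had intensities of 24.4, 41.2 and 51.5 in lactating mice, against 38.8, 49.5 and 95.7 in virgin mice, with a log2 difference of -0.35 ± 0.18 (SE, exact permutation p = 0.115). Its virgin values were spread widely, with an SD of 22.5 against 8.99 in lactating mice. Vmn2r94 was also spread, at 32.8, 38.2 and 62.3 in lactating mice, against 42.6, 53.9 and 61.8 in virgin mice, and 1 lactating mouse lay above every virgin.

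No receptor gene was called higher, and the 5 with the smallest p among those with a positive difference had exact permutation p-values of 0.262 or above. Vmn1r211 had intensities of 131, 170 and 186 in lactating mice, against 131, 154 and 173 in virgin mice, with a log2 difference of 0.11 (95% interval -0.07 to 0.29). Vmn1r35 averaged 18.6 ± 8.26 in lactating and 13.7 ± 6.52 in virgin mice, and Vmn1r172 averaged 50.6 ± 7.10 in lactating and 46.0 ± 7.56 in virgin mice. Vmn2r24 averaged 212 ± 14.1 in lactating and 201 ± 25.7 in virgin mice. Their groups overlapped throughout. With arrays centred on the Olfr genes, Vmn1r211, Vmn1r172, Vmn2r24 and Vmn2r26 passed 0.05 (unadjusted p = 0.0240, 0.0426, 0.0478 and 0.0405), and Vmn2r26 passed after cyclic loess too (0.0483). The Olfr centring put the median of all clusters at 0.06, and the share of all clusters called was not counted under either scaling.

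Clusters of 1 gene did not always give like values. Vmn2r111 had a cluster at 155 and another at 37.6, with log2 differences of -0.04 and 0.13. Vmn1r208, named after its values were seen, had clusters at 114 and 72.8, with log2 differences of 0.02 and -0.28 (limma unadjusted p = 0.857 and 0.0531). The dimmer cluster of Vmn2r65, at 41.3, had a log2 difference of 0.08, opposite in sign to the -0.05 of its brighter one. Vmn2r17 had clusters at 108 and 26.4, and Vmn2r83 at 80.9 and 32.2, with log2 differences of 0.03 and -0.02. The clusters of Vmn2r113, like those of Vmn2r-ps54, were identical on every array. Where probes are shared between similar receptor genes, a value cannot be assigned to 1 gene, and this was not tested.

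The promoters of the receptor genes were read from RefSeq (GRCm38.p6), as windows of 300 bases around the annotated start, most of them upstream, and 147 of the 167 genes had one. The receptor promoters were poor in G and C, with a median of 36.0%, against 52.7% for all 32851 promoters and 35.0% for Olfr promoters. The dinucleotide CG was absent from 33.3% of the receptor promoters and from 5.43% of all. The letters TATAAA, searched on both strands, were found in 52 of 147 receptor promoters (35.4%), in 13.6% of all promoters and in 41.0% of Olfr promoters.

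Of the 10 lower receptor genes with a promoter, 8 held TATAAA, and of the 137 others 44 did. These 10 were chosen by their p, so this is a description with no test. The promoters of the 4 lower genes with the smallest p that have one in RefSeq and of the brightest receptor gene are shown to let their base composition and the place of these letters be seen, with capitals at TATAAA on either strand (TTTATA on the strand shown) and at CG.
Vmn1r24, chr6:57956482-57956781 (-): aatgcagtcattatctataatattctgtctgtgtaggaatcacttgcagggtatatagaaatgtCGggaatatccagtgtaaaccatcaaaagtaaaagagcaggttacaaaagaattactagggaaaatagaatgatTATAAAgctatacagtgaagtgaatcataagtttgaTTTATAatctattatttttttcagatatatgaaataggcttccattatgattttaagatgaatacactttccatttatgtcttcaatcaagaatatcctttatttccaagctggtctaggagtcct
Vmn2r118, chr17:55624623-55624922 (-): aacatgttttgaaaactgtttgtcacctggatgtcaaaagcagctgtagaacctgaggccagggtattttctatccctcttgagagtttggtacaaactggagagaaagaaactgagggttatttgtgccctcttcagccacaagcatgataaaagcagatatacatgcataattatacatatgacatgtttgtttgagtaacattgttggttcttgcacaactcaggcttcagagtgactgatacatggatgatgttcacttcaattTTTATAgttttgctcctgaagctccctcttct
Vmn1r232, chr17:20914314-20914613 (-): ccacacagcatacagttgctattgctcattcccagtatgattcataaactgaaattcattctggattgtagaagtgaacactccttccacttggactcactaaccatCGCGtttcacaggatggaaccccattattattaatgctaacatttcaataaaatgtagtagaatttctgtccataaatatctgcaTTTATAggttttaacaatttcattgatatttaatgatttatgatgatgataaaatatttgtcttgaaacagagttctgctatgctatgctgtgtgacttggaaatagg
Vmn2r112, chr17:22600898-22601197 (+): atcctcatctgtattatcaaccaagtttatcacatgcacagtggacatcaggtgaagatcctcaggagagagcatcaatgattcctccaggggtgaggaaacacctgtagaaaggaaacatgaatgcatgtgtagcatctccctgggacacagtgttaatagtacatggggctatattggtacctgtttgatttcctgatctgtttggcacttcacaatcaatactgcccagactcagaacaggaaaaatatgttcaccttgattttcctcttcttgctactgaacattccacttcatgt
Vmn1r86, chr7:13102898-13103197 (-): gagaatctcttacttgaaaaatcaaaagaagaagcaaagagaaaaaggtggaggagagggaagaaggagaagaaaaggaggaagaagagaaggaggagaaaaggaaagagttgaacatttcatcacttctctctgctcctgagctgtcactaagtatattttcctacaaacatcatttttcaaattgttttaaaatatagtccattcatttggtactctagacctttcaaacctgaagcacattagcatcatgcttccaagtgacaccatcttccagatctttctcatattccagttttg
Vmn1r24 has TATAAA in 2 places and 1 CG, Vmn2r118 has 1 match and no CG, Vmn1r232 has 1 match and 2 CG, and neither the lower gene Vmn2r112 nor the brightest gene Vmn1r86 has either. A match is a run of letters and not a known site. In Vmn2r118 it lies at base 269 of the 300, after an ATG.

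The signalling genes that vomeronasal neurons use were brighter than the receptors, and many of them are general neuronal genes. Of 19 transduction genes listed, 18 were measured, with a median intensity of 775. In limma, 0 passed the unadjusted threshold as higher and 1 as lower. By the exact permutation test 1 was higher and 1 lower, beside 3.98% and 4.13% of all clusters. The higher one was Kcnn2, named after its value was seen (log2 difference 0.11, p = 0.0498 by exact permutation, 0.0538 in limma). Gnao1 averaged 9450 ± 116 in lactating and 9455 ± 107 in virgin mice, and Gnai2 5131 ± 167 in lactating and 5265 ± 225 in virgin mice (SD, n = 6 each). Omp, the olfactory marker protein of mature olfactory and vomeronasal sensory neurons, averaged 253 ± 15.5 in lactating and 266 ± 23.5 in virgin mice (exact permutation p = 0.264). Trpc2 had no single-symbol cluster and is not reported. The gene that was lower was Plcb2, a phospholipase C, at 207 ± 13.9 in lactating and 235 ± 29.0 in virgin mice (log2 difference -0.16, exact permutation p = 0.0368).

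Other genes of the vomeronasal system gave few calls. Among 21 receptor partners and guidance genes, 2 were higher and 1 lower. Calr, a calcium-binding chaperone of the endoplasmic reticulum found in all cells, averaged 5964 ± 261 in lactating and 5446 ± 146 in virgin mice (log2 difference 0.13, exact permutation p = 0.00649), and its relative Calr4 averaged 87.9 ± 5.49 in lactating and 79.2 ± 8.04 in virgin mice (p = 0.0541 by exact permutation, 0.0492 in limma). H2-M10.6, a nonclassical histocompatibility molecule co-expressed with Vmn2r receptors in the vomeronasal organ, averaged 64.7 ± 5.43 in lactating and 77.3 ± 6.52 in virgin mice (log2 difference -0.21, exact permutation p = 0.00649).

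Of 11 transcription factors of vomeronasal neurons measured, 0 were higher and 1 was lower, Gli3, a factor of Hedgehog signalling, at 498 ± 13.9 in lactating and 534 ± 19.4 in virgin mice. Of 29 pheromone ligand genes listed, 8 were measured, with 0 higher and 1 lower, the lipocalin Lcn11, at 144 ± 7.24 in lactating and 164 ± 16.6 in virgin mice. Of 4 formyl peptide receptors of the vomeronasal organ, 0 were higher and 1 was lower, Fpr-rs6, at 44.0 ± 7.10 in lactating and 53.4 ± 3.94 in virgin mice, named after its value was seen. All of these genes had adjusted p-values of 0.619 or above in limma. The number of calls in these lists is to be read beside the 3.26% higher and 4.69% lower among all clusters. It is also to be read by intensity. H2-M10.6 and Fpr-rs6 lie in the dimmest decile, where 7.82% of other genes were called lower. Lcn11 lies in decile 3 (9.44%), Plcb2 in decile 4 (9.01%) and Gli3 in decile 7 (1.72%). Of the higher genes, Calr4 lies in decile 2, where 0.305% of other genes were called higher, and Calr in decile 10 (3.61%).

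**Figure D5:**
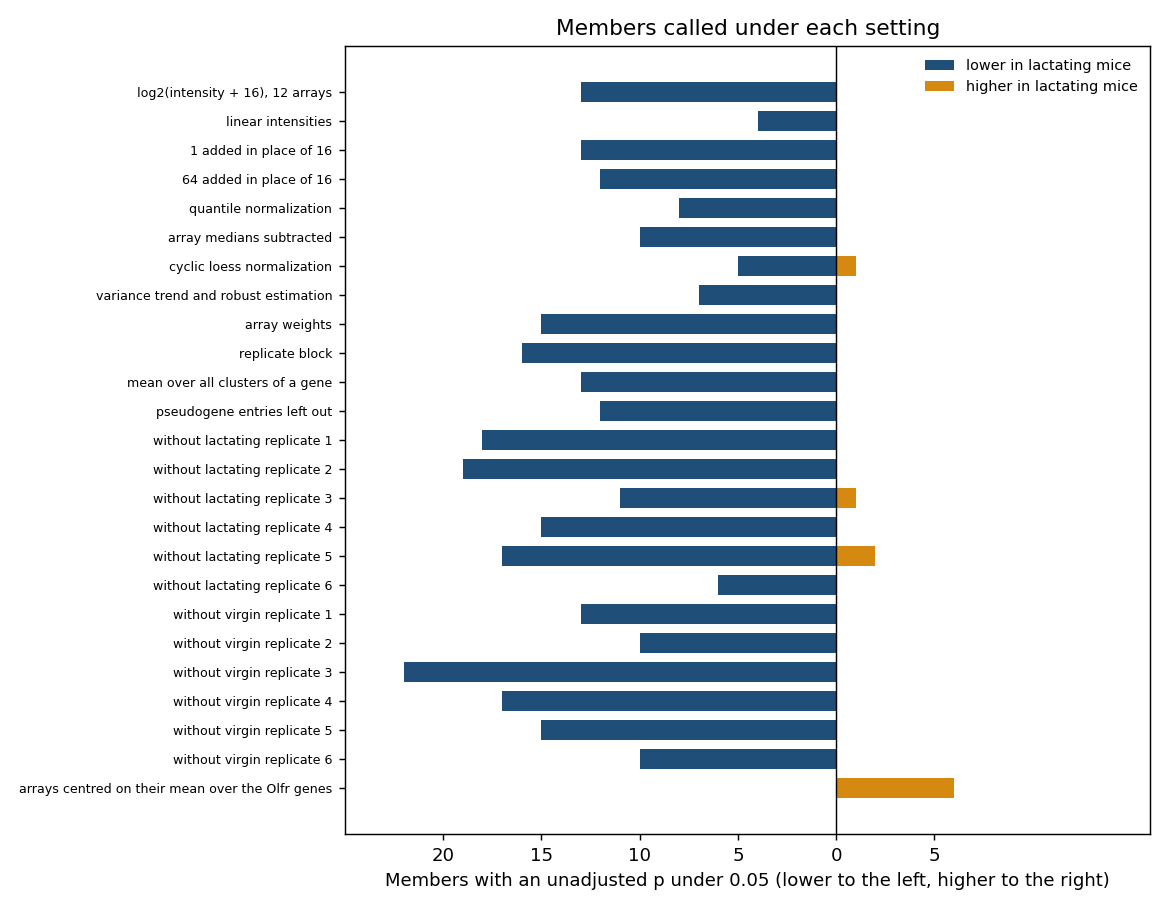
Number of receptor genes, of 167 (163 without pseudogenes), with an unadjusted p under 0.05 in limma that were lower (left of 0) or higher (right of 0) in lactating mice, for the values as deposited and for each other setting except the restriction to bright clusters. The counts of lower genes are between 4 and 22 except with arrays centred on the Olfr genes, where 6 genes are higher and 0 lower. The share of all clusters called was not counted for the settings other than the values as deposited.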

How the data were processed

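Septal RNA from 6 lactating and 6 virgin mice was measured with 1 array each. The authors scanned the arrays, summarised probes into transcript clusters and normalized them with the PLIER algorithm after GC-bin background correction (Affymetrix Power Tools 1.12.0, per the submitters' processing notes), and the deposited values are these intensities on a linear scale. The build behind the platform annotation is not given in the sources used here. The deposited intensities were raised by 16 and converted to log2, and groups were compared over all 35556 clusters with limma 3.58.1 in R 4.3.3 (lmFit and eBayes, two-sided), with Benjamini-Hochberg adjustment over all clusters, and for single genes with a two-sided exact permutation test over 924 assignments. Gene symbols came from the platform annotation, and all 167 receptor genes matched RefSeq. The script was tested on simulated data.

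The 12 arrays limit the precision. The members and lists were chosen with earlier results of these data known. Members are named when they have a described ligand, are among the 5 higher or 5 lower with the smallest p, are among the 3 brightest or dimmest of their class, or have several unlike clusters. Pathway genes are named when among the 4 of a list with the smallest p under 0.05, with Omp, Gnao1 and Gnai2 in any case. The other receptor genes called lower were named after their values were seen. RNA was extracted in matched pairs, but the labels do not give the pairs, so mice were compared as independent. The alternatives were linear intensities, other added values, quantile, median and cyclic loess scaling, array weights, a variance trend fitted robustly, bright clusters, a replicate block, other ways to treat several clusters and pseudogenes, each array left out, and, chosen after seeing the data, centring on the Olfr genes.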

Additional observations from a re-analysis of the deposited data

Results flagged for a closer look

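Of 66 groups of 6 mice tested for a lone extreme value, those of the 30 receptor genes named and of the mean values of Vmn1r, Vmn2r and both, 1 was marked, where chance marks about 1 in 20. Vmn1r211 in lactating mice had lactating mouse 3 at an intensity of 131, with the nearest other lactating mouse at 166 and the highest at 186. Lactating mouse 3 was also the lowest array for 56 of the 167 receptor genes. Without it, Vmn1r211 had a log2 difference of 0.17 (limma unadjusted p = 0.0294), against 0.11 with it. The mouse was left out for its low value in this same gene, so the difference must rise and this p-value is no support.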

How the results depend on the processing

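The median log2 difference of the 167 receptor genes stayed below 0 under every setting run, at -0.09 to -0.03 outside the centring on Olfr genes. The count of receptor genes lower at an unadjusted p under 0.05 was 13, and it was 4 on linear intensities, 8 after quantile normalization, 5 after cyclic loess (with 1 higher) and 7 with a variance trend and robust estimation. Above the median cluster only 2 receptor genes were left, with 0 lower. Centring on the Olfr genes gave 6 higher and 0 lower, with a median of -0.0020 for the receptor genes and 0.06 for all clusters. The share of all clusters called was counted only for the values as deposited. Leaving out 1 array gave 6 (without lactating mouse 6) to 22 (without virgin mouse 3) lower, 0 to 2 higher (1 without lactating mouse 3, 2 without lactating mouse 5) and medians of -0.09 to -0.05. With a replicate block 16 were lower and 0 higher. The replicate numbers were not taken as pairs, since the labels do not give the pairs. Same-numbered mice had residuals correlated above 0.1 for 2 of 6 numbers, at most 0.25, and 4 of 12 mice correlated best with their own number. These values do not settle whether the numbers mark pairs. No named receptor gene that passed changed direction. Detection of single receptors cannot be settled at intensities near those of Y-linked genes.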
